A study of Mus musculus with 7 samples.

Results

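Described here are 9 genes tied to the maturation and migration of dendritic cells: Ccr7, Fscn1, Ccl17, Ccl22, Ccr4, Il12b, Cd83, Socs2 and Relb. They were chosen by name and read from a matrix of unique molecular identifiers (UMIs, counted RNA molecules per gene and cell) from single cells of mouse gliomas, in which all 9 were found among 55491 gene rows. Each was taken as UMIs scaled to a total of 1000000 (CPM) over a mouse's cells of a type, as the share of cells with at least 1 UMI, and as its co-detection with the other members in single dendritic cells. Cell types are the 23 names that the authors gave the cells in their deposited annotation.

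Mice aged 8 to 12 weeks at engraftment received CT-2A cells, a mouse glioma line, in the brain. The 4 knockout (KO) mice carried Sall1CreERT2 (B6;129-Sall1 tm5(cre/ERT2)Ryn) with Siglece fl/fl (B6.129P2-Siglece tm1Bcgen), and the 3 wild-type (WT) mice carried Siglece fl/fl without Cre. Both groups received 2.5 mg tamoxifen per injection, daily from day 7 after engraftment to day 21 and every other day from then on. Live CD45+ and/or CD11b+ cells of the tumour-bearing hemisphere were sorted after freezing and thawing, and each mouse gave 1 10x Genomics 5′ library. Within the brain Sall1 is known as a gene of microglia, so the deletion of Siglece, a receptor of myeloid cells, is directed at microglia.

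Dendritic cells take up antigen in tissue, mature on danger or cytokine signals, and leave for the lymph node, where they present the antigen to T cells. Maturation raises the chemokine receptor Ccr7, which follows Ccl19 and Ccl21 into lymphatic vessels, and the actin-bundling protein fascin (Fscn1), which forms the dendrites of the mature cell. The mature cell also makes Ccl17 and Ccl22, ligands of Ccr4 on T cells, and the IL-12 p40 subunit Il12b; it carries Cd83 at its surface and depends in part on the NF-kB subunit Relb, while Socs2 restrains cytokine signalling.

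The 7 libraries held 28644 cells, from 1410 to 5856 per mouse, with a median of 4479 to 9554 UMIs per cell. Of the barcodes, 460 occurred in more than 1 library. How doublets were treated is not given in the sources used here, and no doublet caller was run. In cells of both microglia names, Siglece had 2, 1, 0 and 0 UMIs in 30, 21, 13 and 49 cells of the KO mice and 20, 19 and 7 UMIs in 113, 92 and 96 cells of the WT mice. Per total UMIs this was 10.7, 19.6, 0 and 0 CPM in KO and 36.1, 45.9 and 18.6 CPM in WT mice, so KO replicate 2, with 1 UMI, lay above WT replicate 3. Which exons are floxed is not given in the sources used here. In dendritic cells, Siglece lay at 18.03 to 34.1 CPM in KO and 15.8 to 34.1 CPM in WT mice, which overlap. By Xist and Y-linked genes, 2 of the KO mice and 1 of the WT mice read as female.

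Positions are GENCODE M21 gene spans on GRCm38. The ligand genes lie on the same chromosome: Ccl22 (ENSMUSG00000031779.3, chr8:94745590-94751699) ends 58753 bases before Ccl17 (ENSMUSG00000031780.2, chr8:94810453-94812036), both on the plus strand. Ccr7 (ENSMUSG00000037944.8) spans chr11:99144196-99155077 on the minus strand and Il12b (ENSMUSG00000004296.14) chr11:44400063-44414033 on the plus strand. Fscn1 (ENSMUSG00000029581.14) is at chr5:142960343-142973185 and Cd83 (ENSMUSG00000015396.4) at chr13:43784775-43803132, both on the plus strand. Ccr4 (ENSMUSG00000047898.7) is at chr9:114490316-114504916, Socs2 (ENSMUSG00000020027.18) at chr10:95385362-95417180 and Relb (ENSMUSG00000002983.17) at chr7:19606217-19629438, all on the minus strand.

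RefSeq promoters (GRCm38.p6) were matched for 5 members, Fscn1, Ccl22, Ccl17, Ccr4 and Il12b; Ccr7, Cd83, Socs2 and Relb are named only. Shown are the 120 bases before the GENCODE gene start, on the plus strand, of the 4 members whose high levels are described next and whose windows end before the start in both annotations: Fscn1 (chr5:142960223-142960342), Ccl22 (chr8:94745470-94745589), Ccl17 (chr8:94810333-94810452) and Il12b (chr11:44399943-44400062). Capitals mark the cyclic AMP response element TGACGTCA.
Fscn1: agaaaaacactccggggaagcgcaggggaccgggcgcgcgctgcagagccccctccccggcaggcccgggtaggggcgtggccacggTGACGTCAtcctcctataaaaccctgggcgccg
Ccl22: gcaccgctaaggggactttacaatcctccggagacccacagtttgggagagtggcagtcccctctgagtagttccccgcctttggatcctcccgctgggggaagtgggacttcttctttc
Ccl17: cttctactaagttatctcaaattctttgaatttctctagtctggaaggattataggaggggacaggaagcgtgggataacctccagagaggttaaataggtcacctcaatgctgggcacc
Il12b: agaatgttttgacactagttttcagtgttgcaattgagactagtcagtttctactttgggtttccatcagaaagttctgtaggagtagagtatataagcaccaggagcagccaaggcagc
The 250 bases before each RefSeq start were searched on both strands. Offsets count from the RefSeq start, which for Fscn1 lies 12 bases after the GENCODE start that ends the printed window. TGACGTCA occurred in 1 of the 5 members, Fscn1, 45 bases before that start, and in 1.55% of 32851 RefSeq promoters. The TATA box TATAAA occurred in Fscn1 alone, 31 bases before the start (12.4% of promoters), and the AP-1 site TGANTCA in Ccr4 alone, 143 bases before its own start (6.75% of promoters). The NF-kB consensus matched none of the 5 windows and 7.25% of promoters. These are matches of letters in windows, not measured sites.

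Among the 23 names, the mean level of 8 of the 9 members was highest in the cells named cDC2, the conventional type 2 dendritic cells, and the exception was the T cell receptor Ccr4. The cDC2 name covered 954 cells, 3.33% of all cells, and held 86.6% of the UMIs of Fscn1, 76.8% of Ccl22, 70.3% of Il12b, 61.5% of Ccr7, 39.3% of Ccl17, 33.2% of Relb, 32.3% of Socs2 and 18.8% of Cd83. For 6 members (Ccr7, Fscn1, Ccl22, Il12b, Socs2 and Relb) the lowest cDC2 mouse lay above the highest mouse of every other name with at least 20 cells per mouse, as did 1.99% (260 of 13088) of all genes reaching 10 CPM in a name. Of the same genes, 6.64% (869 of 13088) had their highest mean in cDC2. The names may rest on these genes, so no test was made between names.

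**Figure D1:**
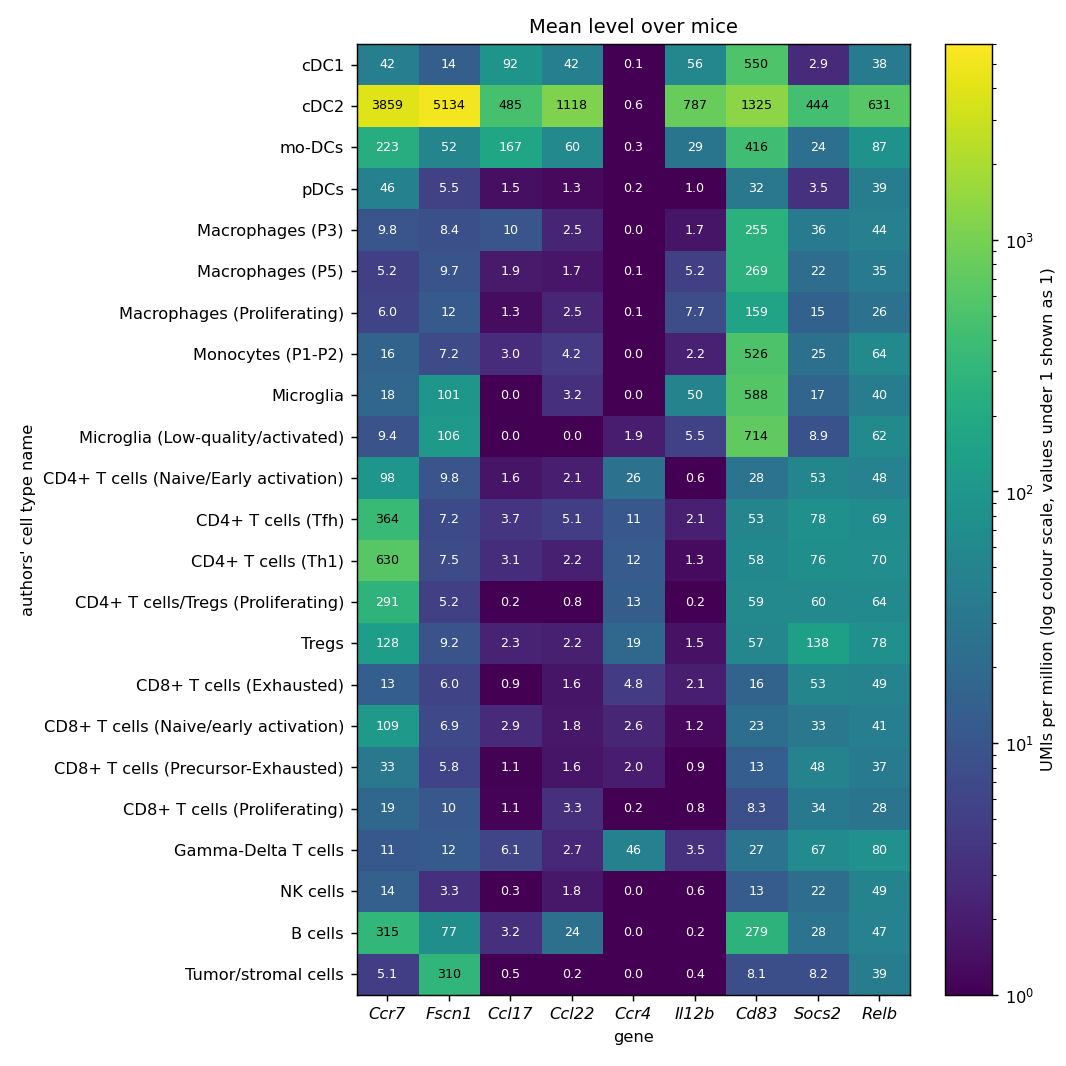
Mean level of each member (CPM, log colour scale, values under 1 shown as 1) in each of the 23 cell type names, over mice with at least 20 cells of the name. The cDC2 row is highest for 8 of the 9 members, and Ccr4 is highest in gamma-delta T cells.

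The name cDC2 did not match its usual markers in these cells. None of the 8 cDC2 markers (Sirpa, Irf4, Cd209a, Clec10a, Mgl2, Cd7, Epcam, Itgam) was highest there. Their summed level was 63.2 CPM in cDC2, from 43.9 to 70.3 in KO and 45.7 to 87.8 in WT mice. It was 66.3 CPM in cDC1, 942 in monocyte-derived dendritic cells (mo-DCs) and 1189 in plasmacytoid dendritic cells (pDCs). Within the cDC1 and cDC2 names, cells with Ccr7 and Fscn1 UMIs, nearly all cDC2-named, were set against cells with neither, all cDC1-named. Sirpa (20.1 against 7.38 CPM) and Irf4 (16.3 against 1.02 CPM) were higher there in all 7 mice, at low levels. The means of Cd209a, Clec10a, Mgl2, Cd7, Epcam and Itgam were lower. The cDC1 transcription factor Batf3 was higher in cDC2 (262 CPM) than in cDC1 (141 CPM). It was an exception among the 8 cDC1 markers, of which 6 were highest in cDC1, 1 in cDC2 and 1 in pDCs. Their sum was 1507 CPM in cDC2, of which Irf8 gave 1140, against 4125 in cDC1. The cells are therefore called the cDC2-named cells below. They made up 31.0% to 42.6% of conventional dendritic cells (cDC1 and cDC2 names) in KO and 23.9% to 38.0% in WT mice.

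Ccr7, the lymph-homing receptor, was at 3859 ± 870 CPM (SD, n = 7 mice) in the cDC2-named cells and was counted in 92.8% of them (95% exact interval 90.9 to 94.3). Each interval on a share covers counting error only. The next names were T and B cells, in which Ccr7 marks naive and recirculating cells: Th1-named CD4+ T cells had 630 ± 394 CPM (n = 6), Tfh-named cells 364 ± 235 (n = 6) and B cells 315 ± 196 (n = 6). The spreads of these 3 names overlap, so their order is not resolved. Among other dendritic cells, mo-DCs had 223 ± 179 CPM, pDCs 45.6 and cDC1 41.6 CPM. NK cells, set beside them for comparison, had a Ccr7 UMI in 4.07% of cells, at a median of 5126 UMIs per cell against 6439 in the cDC2-named cells. With cells thinned to 1500 UMIs and shallower cells left out, the shares were 85.7% in the cDC2-named and 1.40% in NK cells.

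The ligand genes Ccl17 and Ccl22 had their 3 highest levels in dendritic cells. Ccl22 was at 1118 ± 353 CPM in the cDC2-named cells, in 86.1% of them, then at 60.4 ± 32.2 in mo-DCs and 42.4 ± 38.9 in cDC1, which do not differ beyond their spread. Ccl17 was at 485 ± 314 CPM, in 53.0% of the cDC2-named cells (49.8 to 56.2), then at 167 ± 63.9 in mo-DCs (28.6% of cells) and 91.6 ± 75.1 in cDC1 (21.3%). Its lowest cDC2 mouse (198 CPM) lay below the highest mo-DC mouse (246 CPM), so Ccl17 set the cDC2-named cells apart less sharply than Ccl22, whose lowest cDC2 mouse had 660 CPM and whose highest mouse elsewhere had 125 CPM, in B cells. The next mean of Ccl22 was 24.5 CPM in B cells, with the highest mouse at 125 CPM, and that of Ccl17 10.1 CPM in P3 macrophages. Each overlapped the name ranked next below it over mice, so these places are not resolved. In NK cells 0.220% had a Ccl17 and 0.770% a Ccl22 UMI.

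Il12b, the p40 subunit shared by IL-12 and IL-23, was at 787 ± 249 CPM in the cDC2-named cells, in 63.9% of them, and in 0.440% of NK cells. The next levels were 55.9 ± 39.6 CPM in cDC1, 49.7 ± 20.9 in microglia (n = 3) and 29.1 ± 32.5 in mo-DCs, whose spreads overlap. The partner subunits of p40 were nearly undetected beside it: Il12a (p35) was at 0.244 CPM and Il23a (p19) at 0.297 CPM in the cDC2-named cells, and Il12a was highest in pDCs at 54.7 CPM. Ebi3, which pairs with other subunits of the family, was at 121 CPM.

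Fscn1 was at 5134 ± 727 CPM in the cDC2-named cells, in 98.4% of them. The only other name in which most cells had a Fscn1 UMI was tumour/stromal cells, with 310 ± 22.6 CPM (n = 5) and 95.1% of cells. The highest tumour/stromal mouse had 343 CPM, below the lowest cDC2 mouse (3831 CPM). Microglia were at 101 CPM, mo-DCs at 51.9 and cDC1 at 13.9 CPM.

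Cd83, a surface glycoprotein of activated antigen-presenting cells, had 18.8% of its UMIs in the cDC2-named cells, the lowest share of the 8 dendritic cell members. Its level was 1325 ± 292 CPM in the cDC2-named cells, in 95.4% of them, and 714 CPM in low-quality microglia, 588 in microglia, 550 in cDC1, 526 in monocytes, 416 in mo-DCs and 279 in B cells. The highest mouse of the low-quality microglia (1215 CPM) lay above the lowest cDC2 mouse (1044 CPM). NK cells had a Cd83 UMI in 5.72% of cells.

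Socs2, a suppressor of cytokine signalling, was at 444 ± 89.8 CPM in the cDC2-named cells (82.0%) and next at 138 ± 11.8 CPM in regulatory T cells (Tregs, n = 6). Relb, the NF-kB subunit of the non-canonical pathway, was at 631 ± 61.1 CPM (93.4%) and next at 86.5 ± 43.3 in mo-DCs, 80.3 in gamma-delta T cells and 78.0 in Tregs. NK cells had a Relb UMI in 24.6% and a Socs2 UMI in 10.2% of cells. For these genes the NK share cannot serve as a background, since lymphocytes express both.

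Ccr4, the receptor of Ccl17 and Ccl22, lay on the T cell side. It was at 45.5 ± 19.9 CPM in gamma-delta T cells (n = 4, 12.8% of cells), 26.3 ± 12.1 in naive or early activated CD4+ T cells (n = 7), 19.1 ± 8.83 in Tregs (n = 6), 13.0 in proliferating CD4+ T cells and Tregs, 12.0 in Th1-named and 10.6 in Tfh-named cells. The first 3 do not differ beyond their spread. The gamma-delta mean rests on KO replicate 1 and the 3 WT mice, since the other KO mice had 11 such cells each. In the cDC2-named cells Ccr4 had 2 UMIs, both in 1 of 954 cells. It had no UMI in B cells, NK cells, monocytes, microglia other than the low-quality name, or tumour/stromal cells. The low-quality microglia had 1 Ccr4 UMI. By the limit of 3 counts, which is narrower than the exact interval given for shares above 0, a count of 0 allows a share of cells with a UMI of up to 0.330% in NK cells (3 of 909) and 0.357% in B cells (3 of 840).

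**Figure D2:**
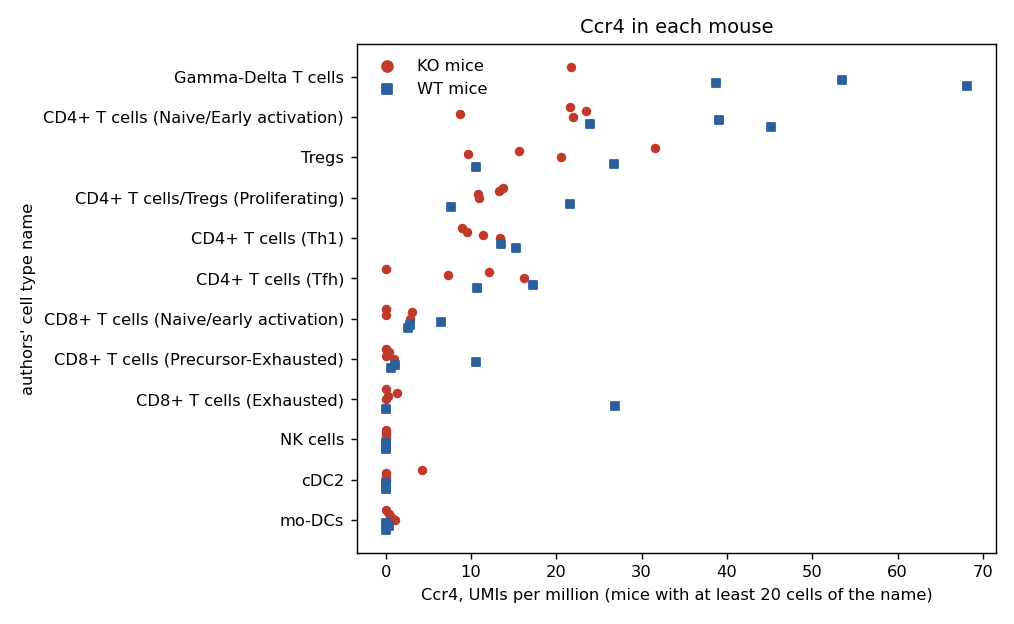
Ccr4 level (CPM) in 12 cell type names, 1 point per mouse with at least 20 cells of the name, KO and WT in different colours. Gamma-delta T cells and CD4+ T cell names hold the highest levels and the cDC2 and mo-DC names lie near 0.

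In single cells the members were found together. Of the 954 cDC2-named cells, 870 (91.2%) had both a Ccr7 and a Fscn1 UMI, which was 79.7% of the 1091 such double-positive cells in the whole series. The share was 93.5%, 83.0%, 92.4% and 93.9% in KO and 97.1%, 92.3% and 90.0% in WT mice, so every mouse had a large majority. It was 89.1% in the 849 cDC2-named cells with at least 3000 UMIs, thinned to that depth. This large share follows from the high share of each gene alone. At that depth Fscn1 was in 97.2% of Ccr7-positive and 99.9% of Ccr7-negative cDC2-named cells, lower with Ccr7 in 6 of 7 mice. Double-positive cells were 4.72% of mo-DCs (74 cells), 0.858% of cDC1 (16 cells) and 1 pDC. Of B cells, 50 (5.95%) were double-positive, with a median of 14463 UMIs against 6684 in the rest.

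Counting the 8 members other than Ccr4, a cDC2-named cell had a median of 7, and 93.7% (894 cells) had at least 5. No cDC2-named cell lacked all 8. The median was 2 in mo-DCs, 1 in cDC1 and 0 in pDCs, and 7.07%, 3.00% and 0% of them had at least 5. Median depth was 6439 UMIs in the cDC2-named cells, 9017 in mo-DCs, 13792 in cDC1 and 6519 in pDCs, so the name with most members was not the deepest. Within names, double-positive cells were deeper than the rest. Their median was 6655.5 against 4787.5 UMIs in the cDC2-named cells, 9667.5 against 8979 in mo-DCs and 19429.5 against 13716.5 in cDC1. The 1 double-positive pDC went the other way (3125 against 6520).

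**Figure D3:**
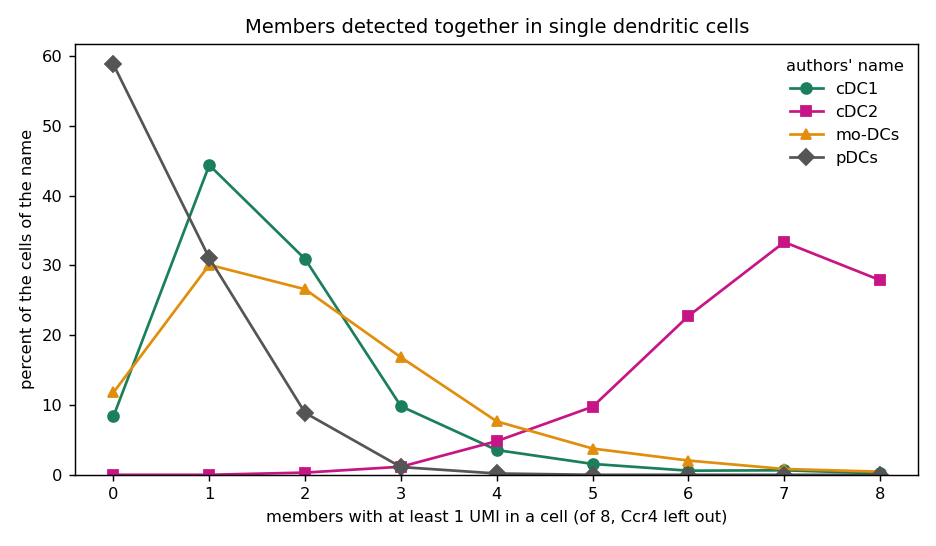
Share of cells (percent) by the number of the 8 members other than Ccr4 with at least 1 UMI, for the 4 dendritic cell names. The cDC2-named cells peak at 7 to 8 members, with 93.7% at 5 or more, and the other 3 names lie mostly below 5.

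Other members were also found in the double-positive mo-DCs and cDC1. The 74 double-positive mo-DCs had Ccl22 at 449 CPM against 20.4 in mo-DCs with neither gene, and Relb at 327 against 62.8 CPM. Their Ccr7 (1934 CPM) and Fscn1 (873 CPM), which chose them, lay below those of the cDC2-named cells, as did Il12b at 147 CPM. Over the 3 mice with at least 10 cells on each side, Ccl22 and Relb were higher in double-positive mo-DCs in each, while Il12b was at 87.7 ± 152 CPM (SD, n = 3) and its log2 ratio ran from -0.29 to 5.19. The 1 double-positive pDC had no UMI of any other member. The 16 double-positive cDC1 had Ccl17 at 1082, Ccl22 at 760 and Il12b at 332 CPM. A UMI of Cd3e, Cd3d or Cd3g, T cell genes, was present in 18.8% of the double-positive cDC1, 14.9% of the double-positive mo-DCs and 11.5% of the double-positive cDC2-named cells. It was present in 13.9% of cDC1 and 13.4% of mo-DCs with neither gene, and in 13.1% of the other cDC2-named cells. Its part in the result was not tested; without cells holding such a UMI, 91.3% of the cDC2-named cells were double-positive.

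Pairs of members were compared at 3000 UMIs per cell, since cells with a member were mostly deeper. Fscn1 in the cDC2-named cells was an exception, with a median of 6436 UMIs in cells with it against 8444 without. In mo-DCs, Ccr7-positive cells had Ccl22 in 29.7% against 5.42% of Ccr7-negative cells, Fscn1 in 20.3% against 2.74% and Relb in 46.8% against 17.7%, each higher in 7 of 7 mice. In cDC1, Ccl22 was in 34.1% of Ccr7-positive against 2.64% of Ccr7-negative cells, Il12b in 32.5% against 2.22% (6 of 7 mice each), and Cd83 in 77.7% against 58.2% (7 of 7 mice). The pairing of the ligands was seen in all 3 types: cells with Ccl17 had Ccl22 in 86.9% against 68.8% among cDC2-named cells, 22.96% against 5.91% among mo-DCs and 19.1% against 2.03% among cDC1, higher in 7 of 7 mice each. Within the cDC2-named cells, Ccl22 was in 76.1% of Ccr7-positive and 78.2% of Ccr7-negative cells, so cells without a Ccr7 UMI held the ligand about as often. Ccl17 was in 42.6% of Il12b-positive and 40.5% of Il12b-negative cells, and Socs2 in 61.9% against 69.3%, lower in 6 of 7 mice.

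The cDC2-named cells divided by Il12b and Ccl17 detection into 361 with both (37.8%), 249 with Il12b only (26.1%), 145 with Ccl17 only (15.2%) and 199 with neither (20.9%). Median depth was 9010, 6247, 6009 and 4108 UMIs in that order, so the division follows depth in part. Some of the groups held under 20 cells in a mouse, down to 5. Ccl22, which was not used to divide them, was at 1547 ± 556 CPM (864 to 2465 over 7 mice) in cells with both and 1262 ± 529 CPM (406 to 2034, ends that come from 7 and 5 cells) with Ccl17 only. It was at 567 ± 117 CPM (394 to 730) with Il12b only and 520 ± 263 CPM (128 to 966, the low end from 8 cells) with neither. Cells with both lay above Il12b-only cells in 7 of 7 mice and Ccl17-only cells did in 6 of 7, the exception being KO replicate 3 (406 against 587 CPM). The Il12b-only and Ccl17-only cells had nearly the same pooled median depth. Within mice it differed both ways, at 5173 against 8659.5 UMIs in WT replicate 3 and 5490 against 4762 in KO replicate 2. The Il12b-only cells had more Cd83 (1300 against 1111 CPM, higher in 6 of 7 mice), Cd200 (389 against 240, 6 of 7) and the transcription factor Irf8 (1305 against 835, 6 of 7). Tmem123 (2100 against 1626), Cacnb3 (874 against 644) and Il15ra (276 against 205) were higher in 7 of 7 mice; these 3 were named after their values were seen. Higher with Ccl17 only, in 6 of 7 mice each, were Ebi3 (143 against 95.3 CPM), Batf3 (278 against 238), Sirpa (43.4 against 13.7) and Cadm1 (22.8 against 5.75). Sirpa and Cadm1 rest on low levels. All these genes were picked, as those at 6 or 7 of 7 mice, from a wider set whose other genes did not reach that. Of 7 mice, Clec9a was higher with Il12b only in 4, Clec10a in 4 and Irf4 in 3. The share over all genes was not computed.

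**Figure D4:**
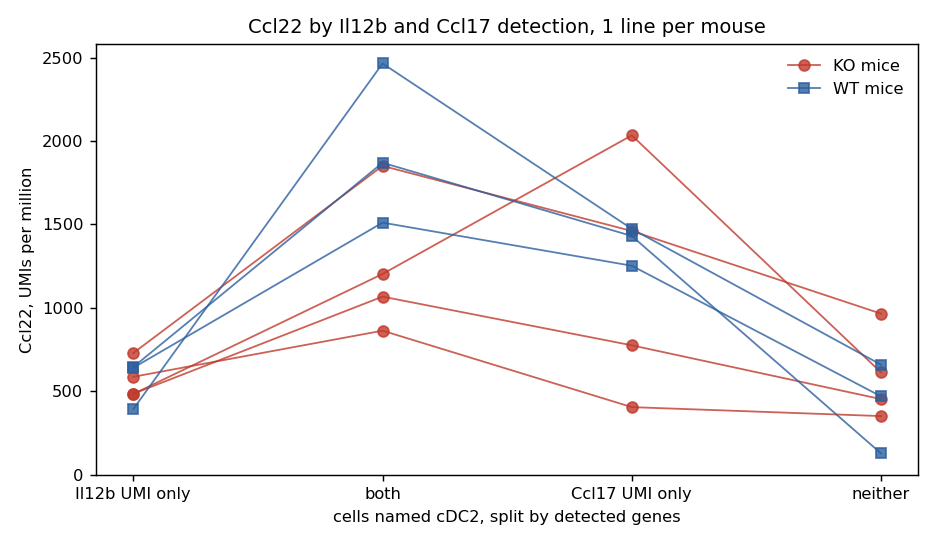
Ccl22 level (CPM) in cDC2-named cells divided by Il12b and Ccl17 detection, 1 line per mouse across the 4 groups. Cells with both genes lie above Il12b-only cells in all 7 mice.

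Double-positive conventional dendritic cells, nearly all cDC2-named, were set against those with neither Ccr7 nor Fscn1, all cDC1-named, within each of the 7 mice. This describes the difference between these names and carries no test. Of 6481 genes, 28.9% (1874) were higher and 33.6% (2177) lower in all 7 mice. Among the genes highest by the fixed rule, the calcium channel subunit Cacnb3 was at 775 against 5.60 CPM, Mreg at 385 against 0.350, the chemokine Ccl5 at 4950 against 57.4, Ramp3 at 682 against 7.13, Stat4, a transducer of IL-12 signals, at 513 against 6.26, and the tetraspanin Cd63 at 738 against 8.47. Nudt17, Il4i1, Gm13546, Samsn1, Ankrd33b, Slc27a3, Tmem123, Anxa3 and Adora2a completed the 15. The 10 lowest genes included Naaa (36.1 against 970 CPM), Wdfy4, needed for cross-presentation (24.4 against 511), Plbd1 (105 against 1658), the peptide exchange subunit H2-DMb1 (48.6 against 833) and the RNA sensor Tlr3 (4.796 against 165), with Ckb, Rab7b, Qpct, Itgae and Alox5ap.

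Lists of related genes gave the surroundings of the members, with 6.64% of all genes highest in cDC2 as the background and 5.59% above the other 3 dendritic cell names in all mice. The lists hold some members: Relb among the NF-kB genes, Fscn1 in the movement list, Il12b in the IL-12 family and Socs2 in the SOCS family. All were chosen with earlier results of these data known, so their counts are a description. Of the costimulation and checkpoint genes, 11 of 13 were highest in the cDC2-named cells and 10 were above the other dendritic cell names in all mice: Cd40 was at 301 CPM (45.7 in cDC1, 84.2 in mo-DCs), Cd80 at 335 (20.8 and 66.8), the checkpoint ligand Cd274 at 471 (45.6 and 145), Cd200 at 340 (6.73 and 6.76) and the IL-15 receptor chain Il15ra at 256 (11.8 and 14.9). Of the NF-kB genes, 11 of 16 were highest there and 9 above the other dendritic cell names in all mice, with Rel at 758 CPM (147 and 257), Traf1 at 1005 (112 and 181) and Nfkb2, the partner of Relb, at 326 (41.0 and 76.9). The inhibitor Nfkbia was at 1760 CPM but highest in Tregs (3130 CPM). A list named for cytoskeleton and movement (Fscn1, Marcks, Marcksl1, Cacnb3, Tmem123, Swap70, Adam23, Samsn1, Gpr132, S1pr1, Cdc42 and Arhgap22) also holds genes known from mature dendritic cells that are not cytoskeletal, such as Cacnb3, Tmem123 and Samsn1, and since it was drawn up with earlier results known its count carries no weight of its own. Of its 12 genes, 10 were highest there, with Marcksl1 at 1397 and Marcks at 676 CPM, and S1pr1 and Arhgap22 were not.

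Of the genes of uptake and the immature state, none of 14 was highest in the cDC2-named cells. In all mice 2 of the 14 lay below the other dendritic cell names and the other 12 overlapped them, while 4.42% of all genes lay below. The lectin Mgl2 was at 8.47 CPM against 261 in mo-DCs, Clec9a, the dead-cell receptor of cDC1, at 43.7 against 232 in cDC1. The inflammatory receptor Ccr2 was at 3.99 CPM. The list was not uniformly low, since Clec7a went the other way among conventional dendritic cells. It was at 267 CPM in double-positive cells and 18.2 CPM in those with neither Ccr7 nor Fscn1. The IL-12 family and its receptors had 3 of 8 highest in the cDC2-named cells, the SOCS family 1 of 8 and the list of TNF, IL-1 and Toll-like inputs (Tnfrsf1a, Tnfrsf1b, Cd40lg, Ltbr, Il1r1, Tlr3, Tlr4 and Tlr9) 0 of 8. The SOCS gene is the member Socs2, and the IL-12 genes are the member Il12b, Ebi3 and Stat4. Of the other SOCS genes, Socs1 was at 157, Socs3 at 94.2 and Cish at 46.8 CPM. Of the Ccr7 ligands, Ccl19, Ccl21a and Ccl21b were not analysed here, and Ccrl2, an atypical receptor, was at 201 CPM in the cDC2-named cells and 1502 CPM in monocytes.

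Across 142 sums of a mouse's cells of a name, the 3 genes most like each member were taken among 16247 genes by Pearson r of log2(CPM + 1). The sums of a mouse share a library and those of a name share depth and makeup, so r is a description. Relb was most like Nfkb2 (r = 0.83), Slc44a5 (0.79) and Gal3st2 (0.78), and Cd83 like Irf5 (0.85), Ppfibp2 (0.81) and Cst3 (0.80). Ccl17 and Ccl22 shared Adam23 as first (0.85 and 0.82), followed by Timd4 (0.84) and Zfp366 (0.83) for Ccl17 and Stap2 (0.82) and Ctrc (0.81) for Ccl22. Fscn1 was most like Adcy6 (0.82), Ktn1 (0.81) and Slco5a1 (0.79), and Il12b like Mab21l3 (0.81), Ctrc (0.79) and Gm44448 (0.79). Ccr7, shared with lymphocytes, had lower values with Cd200 (0.75), Ccr6 (0.72) and Cd70 (0.72), as had Socs2 with 4930523C07Rik (0.72), Adora2a (0.72) and Gm45716 (0.70). Ccr4 was most like Tnfrsf25 (0.89), then Podnl1 (0.81) and Cpm (0.80). Within the set the ligand pair was closest (Ccl17 with Ccl22, 0.82), and the lowest value was that of Ccr4 with Il12b (-0.24).

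The genotypes were compared on UMIs summed per mouse and class with edgeR's quasi-likelihood test and Benjamini-Hochberg adjustment over all genes tested. No member passed an adjusted p of 0.05 in any of 8 classes (0 of 57 tests by edgeR, and 0 by DESeq2), 6 had an unadjusted p under 0.05, and 44 of the 57 estimates were lower in KO. Those under 0.05 were 3 of 8 members in the cDC2-named cells, where 9.67% of all genes were, 2 of 9 in T cells (6.56%) and 1 of 8 in cDC1 (5.83%). None was in conventional dendritic cells (6.95% of all genes), mo-DCs (7.6%), pDCs (6.38%), monocyte-derived cells (5.65%) or Tregs (5.02%). The classes overlap (conventional dendritic cells hold cDC1 and cDC2) and genes of a class share its mice, so these 57 are not independent. The adjusted threshold called 0.045% of all genes in pDCs, 0.0411% in Tregs and 0% in the other 6 classes, of which the cDC2-named cells had 7853 genes tested. There, 7 of the 8 tested members were lower in KO, with a median log2 change of -0.41, against 0.01 over all genes.

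Ccl22 had the lowest adjusted p of the members in the cDC2-named cells. It was at 879, 1309, 660 and 851 CPM in KO and 1301, 1128 and 1701 CPM in WT mice. KO replicate 2 lay inside the WT range and the other KO mice below it. The log2 change was -0.68 (SE 0.22, edgeR adjusted p = 0.399, unadjusted 0.00753). Without a filter on low counts its adjusted p was 0.0229, with a log2 change of -0.70 and 113 of 18703 genes called.

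Ccl17, the other Ccr4 ligand, was at 272, 397, 198 and 457 CPM in KO and 498, 415 and 1157 CPM in WT mice. WT replicate 3 stood far above the other mice, and KO replicate 4 lay within the WT range. The log2 change was -1.14 (SE 0.45, edgeR adjusted p = 0.472), and -0.53 without WT replicate 3. Cd83 was at 1211, 1044, 1153 and 1292 CPM in KO and 1942, 1263 and 1371 CPM in WT mice, with 1 KO mouse inside the WT range (log2 change -0.47, SE 0.18, edgeR adjusted p = 0.421, and -0.27 without WT replicate 1).

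The migration genes showed smaller differences. Ccr7 was at 4387, 2121, 3921 and 3828 CPM in KO and 4932, 3708 and 4114 CPM in WT mice, with KO replicate 2 lowest (log2 change -0.35, SE 0.23, edgeR adjusted p = 0.651). Fscn1 was at 3831, 5371, 4563 and 5552 CPM in KO and 6069, 5249 and 5303 CPM in WT mice, which overlap (log2 change -0.29, SE 0.17, edgeR adjusted p = 0.601). Il12b was at 791, 367, 680 and 936 CPM in KO and 1164, 686 and 885 CPM in WT mice (log2 change -0.48, SE 0.31, edgeR adjusted p = 0.656). Again KO replicate 2 was lowest and the groups overlapped. Relb was at 603 to 614 CPM in all 4 KO mice, inside the WT range of 565 to 755 CPM (log2 change -0.21, edgeR adjusted p = 0.689). Socs2 alone was higher in KO, at 398 to 579 against 291 to 485 CPM (log2 change 0.17, edgeR adjusted p = 0.810), and the log2 change was -0.00163 without WT replicate 3. Leaving out 1 mouse moved several of these estimates by over 1.5 times: Ccr7 to -0.15 and Il12b to -0.25 without KO replicate 2, Il12b to -0.28 and Relb to -0.11 without WT replicate 1, and Fscn1 to -0.19 without KO replicate 1. No member separated the 2 groups in the cDC2-named cells, where 10.4% of all genes did.

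**Figure D5:**
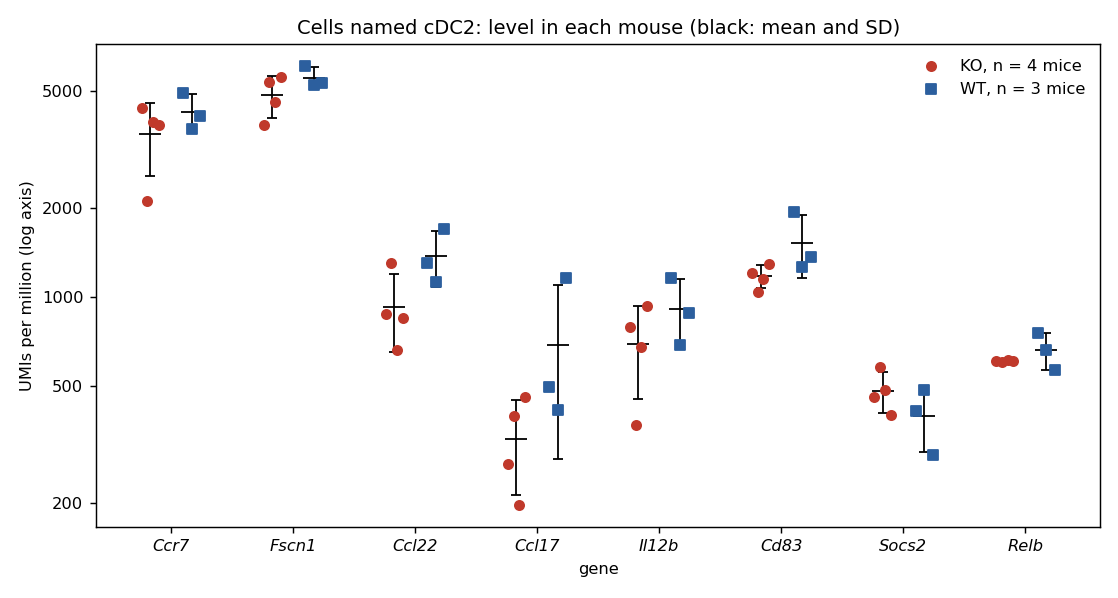
Level (CPM) of 8 members in cDC2-named cells, 1 point per mouse on a log axis with the group mean and SD in black, KO (n = 4) beside WT (n = 3). The points of the groups overlap for all 8 genes.

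Some marker sums of other cell types differed between the groups in the same cells. The summed level of 7 T cell markers (Cd3e, Cd3d, Cd3g, Trac, Cd4, Cd8a and Cd2) was 48.9 to 310 CPM in KO and 15.6 to 71.9 CPM in WT cDC2-named cells, which overlap. It separated the groups in cDC1, at 46.8 to 74.9 against 6.96 to 26.0 CPM, and in mo-DCs, at 57.4 to 212 against 18.7 to 48.1 CPM. At most 1 of the 7 markers was at 0 in a mouse. In the cDC2-named cells it was the sum of the 8 cDC1 markers, mostly Irf8, that separated the groups, at 1248 to 1536 CPM in KO and 1550 to 1850 CPM in WT mice, with none at 0. In mo-DCs the 8 pDC markers separated them too, at 536 to 651 against 764 to 1269 CPM, with at most 2 at 0. In pDCs the groups separated for the pDC markers, at 12995 to 14188 against 15602 to 15960 CPM, and for 7 monocyte-derived markers, at 5179 to 6206 against 6217 to 7861 CPM, with at most 1 at 0. Of single genes, 6.36% had groups that did not overlap in cDC1, 10.4% in the cDC2-named cells, 8.12% in mo-DCs and 6.74% in pDCs. The part of these marker sums in the member values was not tested.

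Of all genes tested in the cDC2-named cells, 48.5% were lower in KO, and the lists, which hold members too, are set beside that share. The lists were chosen with earlier results of these data known, and their genes share the same mice. Their counts are therefore a description and not separate support. Of the costimulation and checkpoint genes 12 of 13 were lower in KO (median log2 change -0.40, 6 with an unadjusted p under 0.05), of the NF-kB genes 14 of 16 (-0.25, 5) and of the cytoskeleton and movement list 10 of 12 (-0.32, 5). Unadjusted p-values under 0.05 were found for 9.67% of all genes, and no list gene was called. The lowest p was that of Tnfsf9, the ligand of 4-1BB, with a log2 change of -0.93 (edgeR adjusted p = 0.196), followed by Birc3, an NF-kB target, at -0.74 (adjusted p = 0.319). Lower in KO were also 3 of 3 genes of the Ccr4 axis, Ccl17, Ccl22 and Dpp4, and 4 of 5 of the IL-12 family. The other lists were more even, with 4 of 7 SOCS genes, 2 of 4 TNF, IL-1 and Toll-like inputs, 2 of 7 uptake genes (median 0.11) and 0 of 1 gene of the Ccr7 axis lower in KO. In mo-DCs 14 of 16 NF-kB genes (median -0.34) and 9 of 11 costimulation genes (-0.38) were lower in KO, and in cDC1 13 of 16 and 8 of 11. Of all genes 49.1% were lower in KO in mo-DCs and 49.3% in cDC1.

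Relb was the member whose groups separated in cDC1. It was at 33.4, 28.4, 37.7 and 34.0 CPM in KO and 46.7, 42.3 and 41.4 CPM in WT mice, so every KO mouse lay below every WT mouse. The log2 change was -0.40 (SE 0.13, edgeR adjusted p = 0.732), 0% of 11009 genes were called, and 6.36% had groups that did not overlap. In mo-DCs the log2 estimate of Relb was -0.80 (SE 0.35, edgeR adjusted p = 0.665), with overlapping groups, and -0.37 without WT replicate 1. All 8 members overlapped there, where 8.12% of all genes did not. The members of pDCs (3 tested, 6.74% of all genes not overlapping), monocyte-derived cells (8 tested, 6.23%) and all conventional dendritic cells (8 tested, 7.79%) overlapped too.

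The groups also overlapped for the other members in these 2 cell types. In mo-DCs, Ccr7 was at 188, 45.3, 98.5 and 389 CPM in KO and 528, 235 and 73.6 CPM in WT mice (log2 change -0.67, SE 0.94, edgeR adjusted p = 0.905), and the direction turned without WT replicate 1 (0.17). The highest and the lowest mouse of each group differed several fold. Ccl22 there was at 42.2, 22.8, 49.6 and 87.7 CPM in KO and 109, 79.7 and 31.3 CPM in WT mice (log2 change -0.60, SE 0.54, edgeR adjusted p = 0.839). Ccl17 was at 111, 105, 168 and 208 CPM in KO and 94.2, 232 and 246 CPM in WT mice (log2 change -0.40, SE 0.37, edgeR adjusted p = 0.840). Ccl17 and Ccl22, both lower in KO by the estimate, did not rank the WT mice alike: WT replicate 1 had the most Ccl22 and the least Ccl17. Leaving out 1 mouse at a time, the log2 change ran from -1.05 (without KO replicate 4) to -0.23 (without WT replicate 1) for Ccl22 and from -0.73 (without WT replicate 1) to -0.19 (without WT replicate 3) for Ccl17. In cDC1, Ccl17 was at 82.7, 60.1, 15.7 and 78.1 CPM in KO and 17.3, 180.1 and 207 CPM in WT mice (log2 change -1.20, SE 0.92, edgeR adjusted p = 0.889). Il12b in cDC1 was at 45.9, 9.52, 8.98 and 82.9 CPM in KO and 81.7, 47.6 and 115 CPM in WT mice (log2 change -1.12, SE 0.89, edgeR adjusted p = 0.891). Without WT replicate 3 the Ccl17 estimate was -0.78, and without KO replicate 4 or 2 the Il12b estimate was -2.22 or -0.73. KO replicates 2 and 3 were low for Ccr7, Fscn1 and Il12b in cDC1, with Ccr7 at 16.3 and 2.24 CPM against 25.1 to 68.6 CPM in the other 5 mice.

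In T cells, Ccr4 and Cd83 had groups that did not overlap, 2 of 9 members against 7.28% of 13043 genes. Ccr4 was at 4.89, 5.03, 1.92 and 5.30 CPM in KO and 26.0, 14.8 and 5.74 CPM in WT mice, each KO mouse below each WT mouse (log2 change -1.73, SE 0.51, edgeR adjusted p = 0.722), and the log2 change was -1.24 without WT replicate 1. The T cell makeup differed beside it: gamma-delta T cells, one of the names with a high Ccr4 level, were 0.290% to 4.40% of T cells in KO and 2.30% to 25.7% in WT mice. With CD4+ and Treg names alone, an alternative chosen after seeing the data, the log2 change was -0.66 (SE 0.30, edgeR adjusted p = 0.862), and the levels of 11.6, 13.4, 9.46 and 15.9 CPM in KO overlapped those of 33.7, 19.8 and 13.1 CPM in WT. Cd83 in T cells was at 25.4, 21.3, 11.5 and 31.7 CPM in KO and 33.1, 40.9 and 34.9 CPM in WT mice (log2 change -0.67, edgeR adjusted p = 0.767). In Tregs, WT replicate 1 had 5 cells and was left out; Relb did not overlap there (1 of 5 members against 15% of 7306 genes, with 4 KO and 2 WT mice).

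The share of cells with a Ccr7 UMI was compared after thinning to 3000 UMIs, by a two-sided exact permutation test over mice. Each of the 35 splits of the mice weighs 0.0286, and the two-sided p doubles the smaller tail. With 4 KO and 3 WT mice this p therefore cannot fall under 0.05, so the test could not have called a difference at that threshold. Of conventional dendritic cells, 33.9% ± 7.99 (SD, n = 4) were Ccr7-positive in KO and 32.1% ± 6.62 (SD, n = 3) in WT mice (exact p = 0.743). The unthinned shares were 38.5% and 36.3%. Of the cDC2-named cells, 90.2% ± 4.43 and 93.2% ± 3.37 were positive (exact p = 0.457), and of mo-DCs 13.7% ± 7.98 and 17.2% ± 7.79 (exact p = 0.571). In pDCs the shares were 7.38% ± 4.35 and 11.3% ± 3.09 (exact p = 0.343), and in cDC1 3.65% ± 2.77 and 4.76% ± 0.326 (exact p = 0.571). Over these 5 types the adjusted p-values ranged from 0.714 to 0.743, and the group means differed by less than the SD of the KO mice. In pDCs and cDC1 they differed by more than the SD of the WT mice. The small difference in conventional dendritic cells turned to lower in KO without KO replicate 1 (-1.04 percentage points) or WT replicate 3 (-2.01). It was 6.60 percentage points higher in KO without the cells in the top 5% of UMIs of their mouse (permutation test, adjusted p = 0.667). That cut removed more cDC1 than cDC2-named cells in every mouse. In KO replicate 3, cDC1 fell from 121 to 42 cells and cDC2-named cells from 60 to 45. The share in conventional dendritic cells also moves with the mix of these names, whose part was not tested.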

How the data were processed

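The 4 KO and 3 WT libraries were sequenced on the 10x Genomics 5′ platform. Per the submitters' processing notes, the tools were FastQC 0.11.5, STARsolo and STAR 2.7.10a with the mm10 genome; the annotation, cell filters, doublet handling and naming method are not given in the sources used here. The authors deposited 1 UMI matrix with expected counts, since 7.51% of the values above 0 are not whole (tolerance 1e-06). Whole counts had been assumed, so sums were rounded before testing. The deposited table of cells gives genes and UMIs per cell as counts, mitochondrial and ribosomal content as percent, and the authors' cell type names.

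UMIs were summed per mouse and name or class (at least 20 cells) and scaled to CPM. Genotypes were compared with edgeR 4.0.16 (glmQLFit robust, TMM, filterByExpr) in R 4.3.3, with Benjamini-Hochberg adjustment over all genes; the p-values measure the spread between mice, 1 library each. Scripts ran in Python 3.11.15 and the code was tested on simulated data. Shares were thinned by the exact hypergeometric expectation, and cells with fewer UMIs than the depth used were left out. Alternatives were RLE scaling, DESeq2 1.42.0, no filter, each mouse left out, a replicate block, rounding down, 50 cells, a sex term, other depths and UMI thresholds, and leaving out cells with Cd3 UMIs or in the top 5% of UMIs.

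The members and gene lists were chosen with earlier results of these data known. Genes named beside the members are the 3 most alike per member, the 15 highest and 10 lowest in double-positive cells (CPM + 5, at least 10 cells on each side), and list genes.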

Additional observations from a re-analysis of the deposited data

Results flagged for a closer look

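Of 57 groups of 4 KO mice tested, 2 had 1 mouse far from the others, where chance gives about 1 in 20 groups. Ccr4 in T cells was at 1.92 CPM in KO replicate 3, against 4.89 to 5.30 CPM in the other KO mice. Ccl22 in cDC1 was at 84.3 CPM in KO replicate 1, against 12.1 to 22.5 CPM in the other KO mice.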

How the results depend on the processing

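The highest mean of 8 of the 9 members stayed in cDC2 under each alternative to the level. No filter on low counts gave 1 called member in the cDC2-named cells, Ccl22 (log2 -0.70, adjusted p = 0.0229); the other filters, scalings and tests called none. Leaving out 1 mouse at a time, the double-positive share of cDC2-named cells lay between 90.2% and 93.4%, and no member was called in any class. The difference in Ccr7-positive conventional dendritic cells (KO minus WT, percentage points) ranged from -2.01 to 5.06 and reversed without KO replicate 1 (-1.04) and WT replicate 3 (-2.01). It was 6.60 without the top 5% of UMIs and 1.24 to 3.11 at other depths, against 1.81 as reported. On the log2 scale, Socs2 in cDC2 ranged from -0.00163 (without WT replicate 3) to 0.34, Ccr7 in mo-DCs from -1.39 to 0.17 (without WT replicate 1), Cd83 in pDCs from -2.03 to 0.0749 (without WT replicate 1) and Ccr4 in Tregs from -0.54 to 0.81 (without WT replicate 2), each reversed by the mouse named. The cause was not tested. Replicate numbers pair no samples in the labels: deviations of 23 same-numbered pairs correlated from -0.22 to 0.14, 2 of them over 0.1. With the replicate block, 0 members were called in the 8 classes and 3 to 38 genes in all. All-gene calls over the classes ran from 4 to 35 with DESeq2 and 3 to 182 without the filter.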
